A study of Rattus norvegicus with 8 samples.

Results

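Cortex and outer medulla of rat kidneys were compared array by array, using the 4 arrays of animals that had received ethylene glycol with alfacalcidol, a model of calcium oxalate stones, out of 8 arrays in all. All animals were male Sprague-Dawley rats, 10 weeks old, and kidneys were divided into both zones after 2 weeks of treatment. Ethylene glycol with alfacalcidol is called EG here. The cortex and outer medulla arrays of animals given EG form the EG pair, and those of animals that also received phlorizin form the EG with phlorizin pair. The other 4 arrays, a control pair and a phlorizin pair without EG, share no array with these and serve as the comparison. The study asked how inhibition of the sodium-glucose cotransporter SGLT2 relates to stone formation. Each zone and treatment had 1 array, on the Clariom S rat platform, and pooling of animals is not stated in the labels. Zones of a treatment can come from the same kidneys, so they were compared within a treatment.

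As background, the cortex holds the glomeruli, the convoluted proximal tubules and the distal convoluted tubules, while the outer medulla holds straight proximal tubules, thick ascending limbs, thin limbs, collecting ducts and bundles of straight vessels. Proximal tubules reclaim glucose, phosphate, amino acids and bicarbonate and secrete organic anions. Thick ascending limbs take up salt and build the medullary salt gradient, to which medullary cells adapt by storing osmolytes such as myo-inositol. Ethylene glycol is metabolised to oxalate, alfacalcidol is a vitamin D analogue that raises calcium absorption, and phlorizin blocks the sodium-glucose cotransporters SGLT1 and SGLT2.

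All values are deposited log2 expression values, and differences are given as cortex minus outer medulla, so a positive difference means higher in the cortex. A total of 13163 probe sets, 9315 of them with a gene symbol, had a highest value of at least 7.54 and were tested. Background probes averaged 5.53 to 5.68 per array, and a value less than 1 above that mean is called near background. A difference from a value under background is inexact. For some genes with such values it is also given with them raised to the background mean of their array. Array medians lay between 7.39 and 7.58. The cortex EG array stood apart in its added control RNAs, with poly-A spikes at 6.42 (7.67 to 8.23 on the remaining cortex arrays) and hybridisation spikes at 10.4 (11.003 to 11.3 there).

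The labelled zones were first set against genes that define them. Slc5a2, which encodes SGLT2 of the early proximal tubule, stood at 15.73 and 16.25 on the cortex arrays of the EG and the EG with phlorizin pair and at 5.45 and 4.996, near background, on the outer medulla arrays. Slc12a1, the furosemide-sensitive salt transporter of the thick ascending limb, stood at 12.01 and 12.93 in the cortex and at 16.89 and 17.70 in the outer medulla. These markers followed the labels. Straight proximal segments were less clear on the outer medulla arrays. Slc5a1, which encodes SGLT1 of the straight segment, was at 5.84 and 4.73 in the outer medulla, near background, and at 7.10 and 7.92 in the cortex. Psca, a marker listed for urothelium and the inner medulla, was at 11.31 and 11.01 in the outer medulla with EG against 7.11 and 6.27 in the cortex, and the part of such tissue in the zone differences was not tested.

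Zone differences with EG were large, and most of those in the EG pair were also found in the EG with phlorizin pair. In limma with the treatment as a block, 2941 probe sets, 22.3% of those tested, passed an adjusted p under 0.05, 1210 of them (9.19%) toward the cortex and 1731 (13.2%) toward the outer medulla. At least 1 log2 unit apart in the same direction in both pairs were 972 probe sets on the cortex side (7.38%) and 1248 on the outer medulla side (9.48%). All 2220 of these were also called by limma, while 721 called probe sets were under 1 in at least 1 pair. Counted by itself, the EG pair had 1104 probe sets at least 1 apart toward the cortex and 1463 toward the outer medulla. The EG with phlorizin pair had 1692 and 2629, so a smaller share of its differences was held in both pairs. The median over all tested probe sets was -0.14 in the EG pair and -0.21 in the EG with phlorizin pair, and with each array centred on its median both were -0.09. Near the limit of 1 on the cortex side, the pseudokinase gene Trib1 lay just inside, with 1.002 in the EG pair and 1.95 in the EG with phlorizin pair, and the lysosomal sulfatase gene Arsb just outside, with 0.99 and 1.40. The fit had 1 residual degree of freedom, the change of the zone difference between the pairs, so inequality between the pairs enters the error of each call. Without the treatment block the calls numbered 737 and 808. With all 8 arrays in the fit they numbered 1588 and 2560. In fits over the 6 arrays left without 1 of the pairs with EG, the zone difference with EG rests on 1 pair. Their error comes from the arrays without EG alone, so their call counts are not given. As the labels name no separate animals, the p-values measure only the spread between these arrays.

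**Figure D1:**
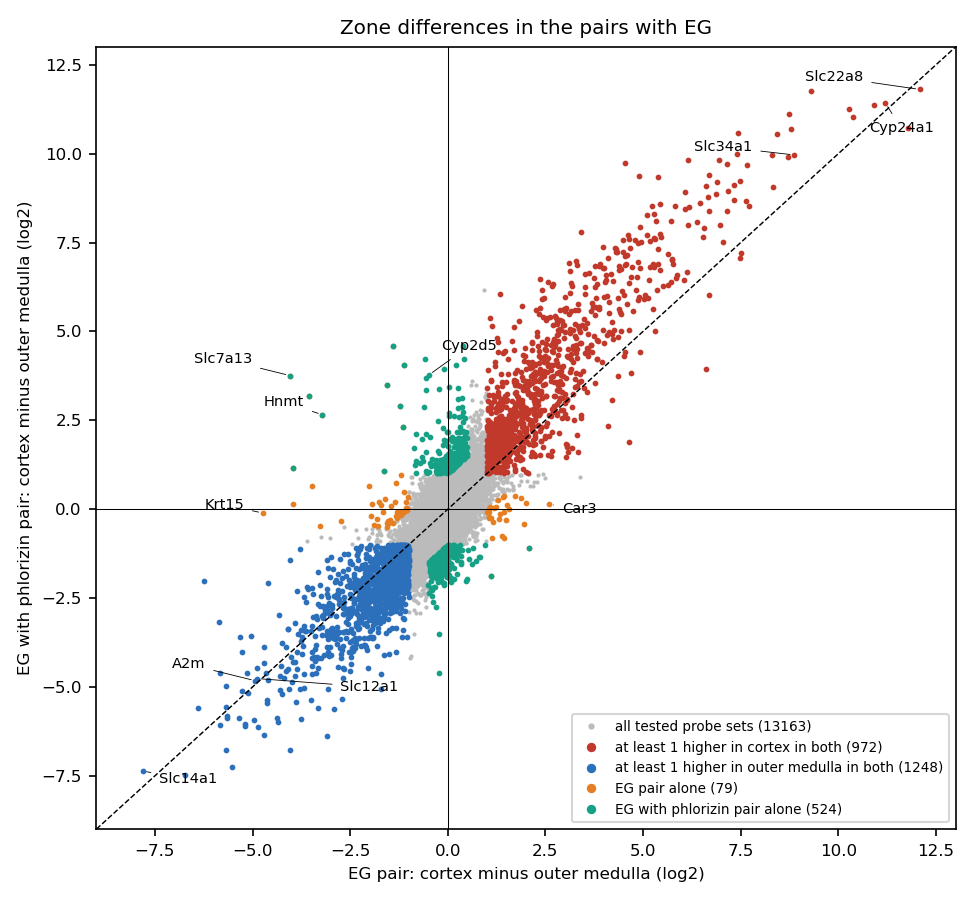
Cortex minus outer medulla difference (log2) in the EG pair (horizontal axis) and in the EG with phlorizin pair (vertical axis), 1 point for each of 13163 tested probe sets, coloured by whether the difference was at least 1 in both pairs or in 1 pair alone. The 972 cortex and 1248 outer medulla probe sets shared by both pairs fill the upper right and lower left, and Slc7a13, at -4.05 and 3.76, lies in the upper left, where probe sets of opposite direction carry the colour of the EG with phlorizin pair.

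Transporters of the early proximal tubule led the cortex side, with very large differences in both pairs. Slc22a8, an organic anion transporter, stood at 16.91 and 17.75 on the cortex arrays and at 4.82 and 5.94 on the outer medulla arrays. Its difference was 11.95 (SE 0.27, limma adjusted p = 2.64e-05), or at least 11.56 with values under background raised to it. Slc5a12, a lactate transporter, differed by 11.79 and 10.71 in the pairs, and Slc5a2 by 10.28 and 11.25. Both genes thus had differences of the same order in both pairs. Slc34a1, the main phosphate transporter, differed by 9.42 (SE 0.34), Slc22a6, another organic anion transporter, by 9.74 (SE 0.46), and Slc4a4, the basolateral bicarbonate transporter, by 8.70 (SE 0.30). List counts here and below stand beside shares over all tested probe sets of 9.19% called toward the cortex and 13.2% toward the outer medulla. Each of the 16 first proximal segment markers tested was called higher in the cortex, under each of the 10 alternative fits too. Their median difference was 7.61 in the EG pair and 8.80 in the EG with phlorizin pair, and 14 of 16 had the smaller difference in the EG pair. Hnf4a, a transcription factor that maintains proximal identity, was among them, at 14.21 and 14.74 in the cortex and 8.02 and 6.24 in the outer medulla.

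The gene starts of the leading genes were searched for short motifs, since these genes were high in the same zone in both pairs. RefSeq promoters (assembly GRCr8, 250 bases before to 50 after the start) were held for 12 of the 15 genes with the largest cortex difference and for 11 of the 15 with the largest outer medulla difference. The half-site GTTAAT of the proximal tubule factor HNF1, searched on both strands, was found in 3 of the 12 and in 0 of the 11, against 7.45% of all 33469 promoters. It was one of 20 motifs searched and was chosen for display after its matches were seen. The full HNF1 site and both HNF4 forms searched were in 0 of the 12, and the AP-2 site GCCNNNGGC was in 7 of the 12 and 1 of the 11, against 15.1% of all promoters. The promoters of the 3 genes are shown with the match in capitals, for Slc22a8 at chr1:214927034-214927333 on the plus strand, Slc34a1 at chr17:9238934-9239233 on the minus strand and Pck1 at chr3:182348322-182348621 on the plus strand. Slc5a3, the myo-inositol transporter from the outer medulla side, at chr11:44799537-44799836 on the plus strand, is shown beside them and held no match.
Slc22a8: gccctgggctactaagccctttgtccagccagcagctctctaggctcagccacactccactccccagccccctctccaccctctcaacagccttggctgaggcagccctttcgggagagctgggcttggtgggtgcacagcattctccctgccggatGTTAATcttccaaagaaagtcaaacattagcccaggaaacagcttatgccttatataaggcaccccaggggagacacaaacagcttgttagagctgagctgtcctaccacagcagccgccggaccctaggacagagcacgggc
Slc34a1: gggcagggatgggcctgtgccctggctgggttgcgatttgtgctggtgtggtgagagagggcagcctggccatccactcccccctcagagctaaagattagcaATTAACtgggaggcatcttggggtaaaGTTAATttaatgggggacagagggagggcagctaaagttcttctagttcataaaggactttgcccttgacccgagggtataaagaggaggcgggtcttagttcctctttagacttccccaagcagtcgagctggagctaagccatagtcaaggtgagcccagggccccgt
Pck1: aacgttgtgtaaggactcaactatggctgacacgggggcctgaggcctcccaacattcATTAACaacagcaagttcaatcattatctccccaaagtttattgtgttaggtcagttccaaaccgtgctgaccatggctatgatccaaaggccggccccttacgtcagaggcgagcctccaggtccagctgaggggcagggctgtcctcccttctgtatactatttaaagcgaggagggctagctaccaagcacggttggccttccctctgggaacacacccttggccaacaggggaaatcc
Slc5a3: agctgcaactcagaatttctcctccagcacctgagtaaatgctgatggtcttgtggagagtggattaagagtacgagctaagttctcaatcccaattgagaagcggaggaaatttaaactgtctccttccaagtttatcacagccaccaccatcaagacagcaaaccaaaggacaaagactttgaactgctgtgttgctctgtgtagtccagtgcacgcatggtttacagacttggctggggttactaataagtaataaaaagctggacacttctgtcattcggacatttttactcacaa

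Metabolic genes of the proximal tubule were also higher in the cortex. Of 12 tested genes of gluconeogenesis and ammonia formation, 7 were higher in the cortex against 0 in the outer medulla. Pck1, the key enzyme of glucose formation, was at 15.0002 and 16.16 in the cortex and at 6.30 and 6.27 in the outer medulla, a difference of 9.30 (SE 0.36, limma adjusted p = 8.91e-05). Fbp1, fructose bisphosphatase, differed by 7.67 and 9.69 in the pairs, and G6pc1, glucose-6-phosphatase, by 6.69 and 6.01. The list's median was 2.04 in the EG pair against 3.87 in the other. The glutamine transporter gene Slc38a3 was near level in the EG pair, at 8.33 (cortex) and 8.57 (outer medulla), against 12.10 and 8.73 with phlorizin. Its mean zone difference without EG was 3.55, and the interaction of zone with EG did not pass for Slc38a3.

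Organic ion transporters showed 10 of 14 tested members higher in the cortex against 0 in the outer medulla. Slc47a1, which exports organic cations into urine, differed by 5.19 in the EG pair and 7.55 in the EG with phlorizin pair, and Slc22a2, a basolateral cation transporter, by 3.16 and 6.36. Slc22a12, the urate transporter, differed by 2.45 and 5.94. The list's median was 2.81 against 4.65, and 10 of 14 members had the smaller difference in the EG pair.

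Genes of oxalate and glyoxylate handling were mainly cortical. Of 11 tested, 8 were higher in the cortex against 1 in the outer medulla, the anion exchanger gene Slc26a7, with medians of 3.29 and 4.63 in the pairs. Slc26a1, a sulfate and oxalate exchanger, stood at 12.52 and 14.13 in the cortex and at 5.92 and 5.04, near background, in the outer medulla. Grhpr, which reduces glyoxylate, differed by 5.81 (SE 0.37, limma adjusted p = 0.000334), Dao, D-amino acid oxidase, by 7.99 (SE 0.77) and Agxt2, an aminotransferase that acts on glyoxylate, by 6.56 (SE 0.51). In all 11 tested genes of the list the EG pair had the smaller difference.

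Glucose transporters, of the SGLT family that phlorizin acts on and the separate GLUT family, were divided by zone. Of 11 tested, 6 were higher in the cortex against 4 in the outer medulla. Slc2a2, which encodes the basolateral exporter GLUT2, was at 14.96 and 14.05 in the cortex and at 7.24 and 5.51 in the outer medulla, a difference of 8.13 (SE 0.31, limma adjusted p = 8.91e-05). Slc2a1, which encodes GLUT1, went the other way, at 9.94 and 10.62 in the cortex and 13.31 and 13.64 in the outer medulla. Its differences of -3.38 and -3.02 in the pairs were close in size. Slc5a8, a monocarboxylate transporter of the SGLT family, differed by 3.51 and 6.61, and Slc2a4, which encodes the insulin-regulated GLUT4, by -1.05 and -3.60.

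Antioxidant genes were higher in the cortex in 9 of 18 tested and in the outer medulla in 1, the quinone reductase gene Nqo1. Gpx3, the plasma glutathione peroxidase made by the proximal tubule, was at 18.72 and 19.01 in the cortex and at 14.15 and 12.12 in the outer medulla. Sod3, extracellular superoxide dismutase, differed by 3.27 and 4.61 in the pairs. Fatty acid oxidation and ketone genes had 6 of 15 higher in the cortex against 2 in the outer medulla, and 3 and 0 without the treatment block. The outer medulla count was near the 13.2% of all tested probe sets. Acsm2, an acyl-CoA synthetase, had a difference of 8.43 (SE 0.57, limma adjusted p = 0.000403). Respiratory chain subunits had 0 of 16 called by limma in either direction, with medians of 0.25 and 0.56. In the fit over all 8 arrays 2 of 16 were higher in the cortex.

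Markers of the straight proximal segment departed widely between the pairs. Of 10 tested, 6 were higher in the cortex against 0 in the outer medulla. The list's median difference was 1.12 in the EG pair and 3.60 in the EG with phlorizin pair. Slc7a13, an aspartate and glutamate transporter of this segment, stood on the cortex arrays at 15.40 in the control, 16.37 with phlorizin, 8.46 with EG and 15.23 with EG and phlorizin. On the outer medulla arrays in the same order Slc7a13 stood at 13.48, 13.85, 12.51 and 11.47. The cortex EG array lay far below the other cortex arrays, and the zone difference was -4.05 in the EG pair against 3.76 with phlorizin. Slco1a6, an organic anion transporter, was at 13.49, 14.37, 7.72 and 12.80 in the cortex and at 11.88, 12.48, 11.28 and 9.62 in the outer medulla. The amino acid transporter gene Slc7a12 was low in both zones of the EG pair, at 7.56 (cortex) and 7.53 (outer medulla), against 11.64 and 8.21 with phlorizin. By contrast Slc7a9, the light chain of the cystine transporter, differed by 7.15 and 8.39, and Cyp2e1, a cytochrome P450 that oxidises small molecules, by 6.89 and 9.21.

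Markers of the distal convoluted tubule were mostly higher in the cortex, and those of the connecting tubule were divided. Slc12a3, the thiazide-sensitive transporter of the distal convoluted tubule, was at 15.45 and 16.29 in the cortex and at 4.53 and 4.93, near background, in the outer medulla. Its difference was 11.14 (SE 0.28, limma adjusted p = 2.64e-05), or at least 10.25 with Slc12a3 values under background raised to it. Of 9 tested markers of this segment 6 were higher in the cortex against 1 in the outer medulla, the kinase gene Stk39. Calb1, the calcium-binding protein calbindin, differed by 5.29 and 7.59, and Klk1, tissue kallikrein, by 5.38 and 9.34. Trpv5, the apical calcium entry channel, stood at 13.76 in both zones of the EG pair and at 13.17 and 10.99 with phlorizin, cortex first. Without EG, Trpv5 stood at 11.35 and 11.40 in the cortex and at 5.48 and 4.49 in the outer medulla. The interaction of zone with EG for Trpv5, -5.30, did not pass (limma adjusted p = 0.135). Trpv6, a related channel, was higher in the outer medulla with EG, at 9.53 and 7.92 against 6.08 and 5.54 in the cortex. Of 9 connecting tubule markers 3 were higher in the cortex and Trpv6 in the outer medulla. Their median difference was 0.14 in the EG pair and 1.12 in the EG with phlorizin pair.

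Cyp24a1, the enzyme that breaks down active vitamin D, was among the genes with the largest cortex differences. It stood at 15.64 and 16.59 in the cortex and at 4.44 and 5.17, under background, in the outer medulla. The difference of Cyp24a1 was 11.31 (SE 0.27, limma adjusted p = 2.64e-05), or at least 10.49 with values raised to background. In the pairs without EG the cortex values of Cyp24a1 were 12.05 and 13.52, and the mean difference was 8.20. The interaction of zone with EG did not pass for Cyp24a1. Of the 21 tested genes of vitamin D, calcium and phosphate, 9 were higher in the cortex against 5 in the outer medulla, and 6 and 3 without the treatment block. Pth1r, the parathyroid hormone receptor, differed by 3.02 and 5.65, and Slc34a3, another phosphate transporter, by 6.66 and 8.79.

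**Figure D2:**
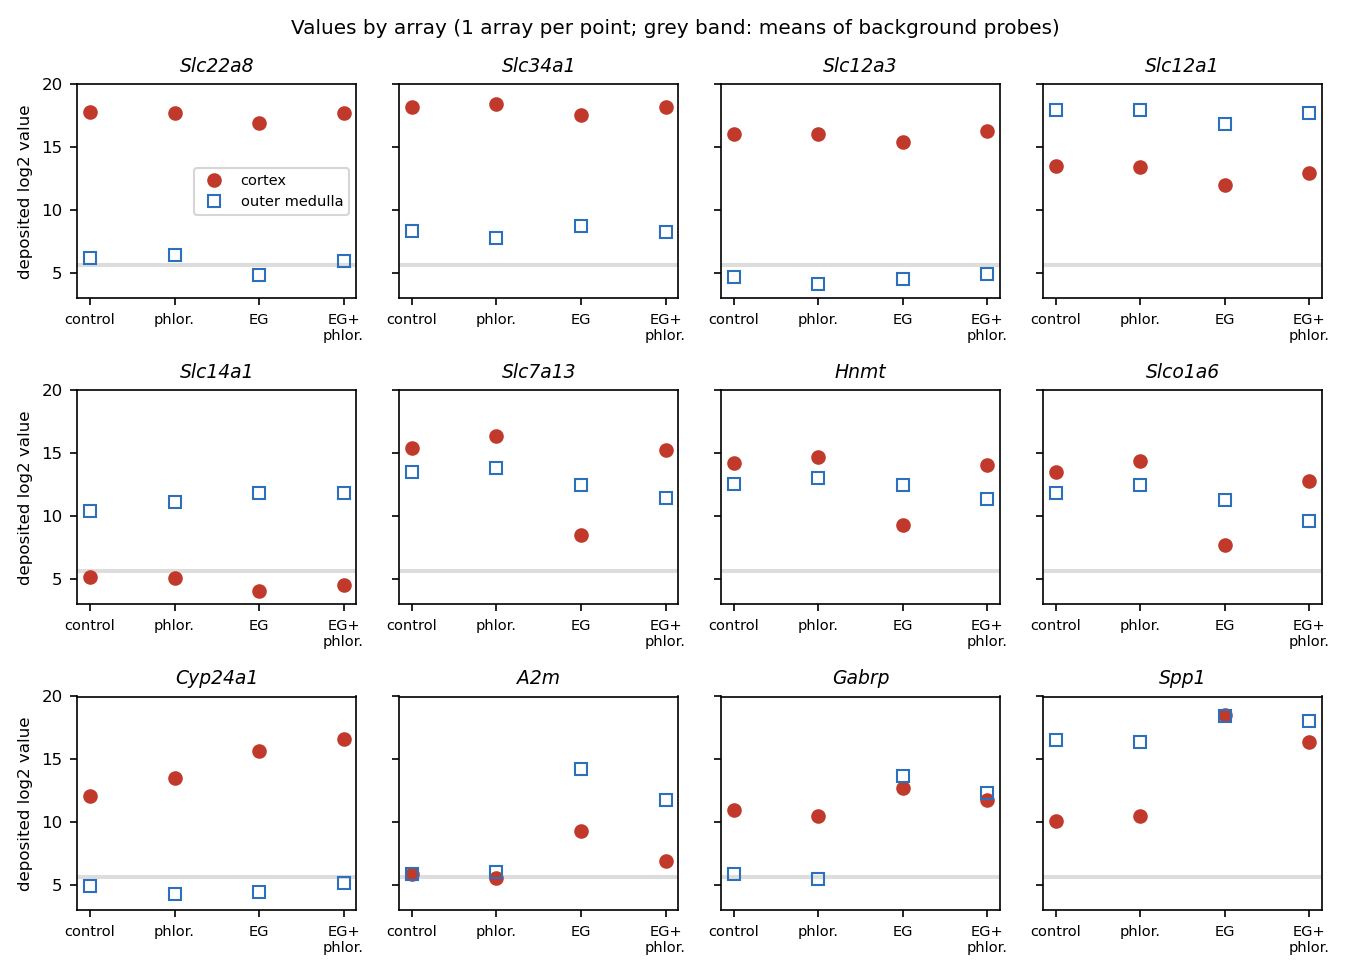
Deposited log2 values (vertical axis) of 12 genes on the 8 arrays, by treatment (horizontal axis), with filled circles for cortex, open squares for outer medulla and a grey band for the range of background probe means. Slc22a8, Slc34a1 and Slc12a3 keep a wide distance between zones in all 4 pairs, Slc7a13, Hnmt and Slco1a6 have a low cortex value with EG alone, and Spp1 stands at 18.52 and 18.49 in the EG pair.

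Genes of the thick ascending limb and the thin limb formed the outer medulla side. Slc12a1 differed by -4.89 and -4.77 in the pairs, a mean of -4.83 (SE 0.27, limma adjusted p = 0.00023). Of 11 tested thick ascending limb markers 9 were higher in the outer medulla against 1 in the cortex, the calcium-sensing receptor gene Casr. The median was -2.68 in the EG pair against -2.21 with phlorizin, and 2 of 11 had the smaller difference in the EG pair. Umod, which encodes the urinary protein uromodulin, was at 14.94 and 16.72 in the cortex and at 17.46 and 18.17 in the outer medulla. Cldn19, a tight junction protein of this segment, differed by -4.65 and -4.61. Of 11 thin limb markers 9 were higher in the outer medulla against 0 in the cortex, among them Fst, the activin antagonist follistatin, at -4.35 and -5.98.

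Osmolyte and urea genes were mostly higher in the outer medulla, and water channels were divided. Slc14a1, the urea transporter of descending straight vessels and red cells, was at 11.82 and 11.87 in the outer medulla and at 4.003 and 4.50, under background, in the cortex. Its difference was -7.59 (SE 0.28, limma adjusted p = 8.91e-05), and -6.31 with Slc14a1 values under background raised to it. Slc5a3 was at 14.73 and 15.56 in the outer medulla and at 9.78 and 9.64 in the cortex. Of 11 tested osmolyte and urea genes 8 were higher in the outer medulla against 0 in the cortex. Akr1b1, aldose reductase, which makes sorbitol, differed by -1.58 in the EG pair and -3.49 with phlorizin. Of 7 water channels 4 were higher in the outer medulla against 2 in the cortex, Aqp7 and Aqp11. Aqp2, the vasopressin-regulated water channel of the collecting duct, differed by -2.78 and -2.66, and Aqp7, a proximal channel, by 4.83 and 6.54 the other way. Among claudins 11 of 14 were higher in the outer medulla against 2 in the cortex.

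Other leading genes of the outer medulla encode regulators. Alx1, a homeobox factor, was at 14.66 and 14.54 there against 7.94 and 7.07 in the cortex, and Sim2, another transcription factor, at 11.55 and 12.23 against 5.89 and 6.35. Of 21 tested tubule transcription factors 15 were higher in the outer medulla against 2 in the cortex. Wnt5a, a secreted Wnt ligand, differed by -5.19 and -6.04, with a mean difference of -3.90 without EG, and its interaction did not pass. Fgf7, an epithelial growth factor made by stroma, differed by -5.28 and -5.11, with -2.33 without EG, and its interaction of -2.87 did not pass (limma adjusted p = 0.133). Collecting duct cells divided by type. Principal cell markers had 6 of 11 higher in the outer medulla against 1 in the cortex. Intercalated cell markers had 5 of 16 higher in each zone, and 2 in each without the treatment block. Slc26a4, the chloride and bicarbonate exchanger pendrin, was at 9.32 and 12.17 in the cortex against 6.005 and 5.29. Slc4a1, the basolateral anion exchanger, was at 12.97 and 15.24 in the outer medulla against 7.93 and 11.69.

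Vessel, stroma and immune genes were more often higher in the outer medulla. Of all tested probe sets, 13.2% were called toward the outer medulla and 9.19% toward the cortex. Of 14 endothelial markers 8 were higher in the outer medulla against 2 in the cortex, and Plvap, a protein of fenestrated vessels, differed by -2.08 and -2.41. Without the treatment block 5 and 1 were called. Markers of mural, mesangial and renin cells had 7 of 10 and fibroblast markers 5 of 9 higher in the outer medulla. Without the block 2 of 10 and 2 of 9 were called. Pdgfra, a receptor of interstitial fibroblasts, is on both lists and differed by -1.86 and -2.47. Gata3, among those called on the mural list, is also on the principal cell list. The only fibroblast marker higher in the cortex was Dpep1, a dipeptidase also made by proximal tubules. Of 17 tested matrix and fibrosis genes 10 were higher in the outer medulla against 0 in the cortex, and without the treatment block 1 was called. Fn1, fibronectin, was at 15.94 (cortex) and 17.44 (outer medulla) in the EG pair and at 12.75 and 16.82 with phlorizin. Of 15 macrophage and dendritic cell markers 6 were higher in the outer medulla against 0 in the cortex, and 3 with array medians centred and 0 without the block were called. Mrc1, the mannose receptor, differed by -0.71 and -2.91. Podocyte markers, from glomeruli, were higher in the cortex in 3 of 8, among them Nphs1, nephrin, at 7.41 and 8.15 against 5.12 and 5.80, near background. Cdkn1c, a cell cycle inhibitor on that list, was higher in the outer medulla. Fewer cells of a type and less RNA per cell cannot be told apart in such tissue samples.

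Red cell transcripts were higher in the outer medulla in 4 of 5 tested genes, and 0 of 5 were called without the treatment block. Slc4a1, among those called, is also on the intercalated cell list. Hbb, a globin, was at 7.86 (cortex) and 11.72 (outer medulla) in the EG pair and at 11.12 and 15.61 with phlorizin. Both zones of the EG pair had the lower values. The part of blood content in the other differences was not tested.

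Injury genes were called in both zones. Of 20 tested, 4 were higher in the cortex against 6 in the outer medulla, and without the treatment block 1 and 0 were called. In the fit over all 8 arrays these counts were 5 and 8. Havcr1, the gene of the proximal tubule injury marker KIM-1, was at 17.05 and 14.60 in the cortex and at 14.26 and 11.02 in the outer medulla, a difference of 3.18 (SE 0.31, limma adjusted p = 0.00122). The fibrinogen gene Fga differed by 2.80 and 3.82 and Fgb by 3.23 and 2.50, also toward the cortex. Spp1, which encodes the stone matrix protein osteopontin, was level in the EG pair at 18.52 (cortex) and 18.49 (outer medulla), and at 16.37 and 18.02 with phlorizin. Without EG the zone difference of Spp1 was -6.47 in the control pair and -5.91 in the phlorizin pair, and the interaction of 5.38 did not pass (limma adjusted p = 0.097). Lcn2, which encodes the injury protein NGAL, was at 14.11 and 13.42 in the EG pair and at 9.76 and 8.79 with phlorizin, cortex first. Cd44, the hyaluronan receptor, was at 11.72 and 12.35 in the EG pair and at 9.01 and 11.36 with phlorizin. Neither Lcn2 nor Cd44 passed for the zone difference.

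Crystal matrix and crystal binding genes had 2 of 10 higher in the cortex against 5 in the outer medulla. The counts were 1 and 1 without the treatment block, and 2 and 7 in the fit over all 8 arrays. Fetub, a relative of the calcification inhibitor fetuin-A, differed by 6.40 (SE 0.29, limma adjusted p = 0.000167) toward the cortex, and Has2, a hyaluronan synthase, by -2.13 (SE 0.32). Cytokines had 3 of 12 higher in the cortex against 5 in the outer medulla, and 0 and 3 without the block. The interferon-induced chemokine gene Cxcl9 was at 10.01 and 10.40 in the outer medulla and at 5.11 and 5.94, near background, in the cortex. Il24, a cytokine gene, was at 10.14 and 7.15 in the cortex and at 7.99 and 5.55 in the outer medulla. Among 16 cell cycle genes the proliferation marker Mki67 alone was called, at 10.95 and 8.50 in the cortex and 11.83 and 10.37 in the outer medulla. In the fit over all 8 arrays 3 of 16 were called, each toward the outer medulla. Toward that zone the 8-array fit also called 2560 of all 13163 probe sets, against 1731.

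**Figure D3:**
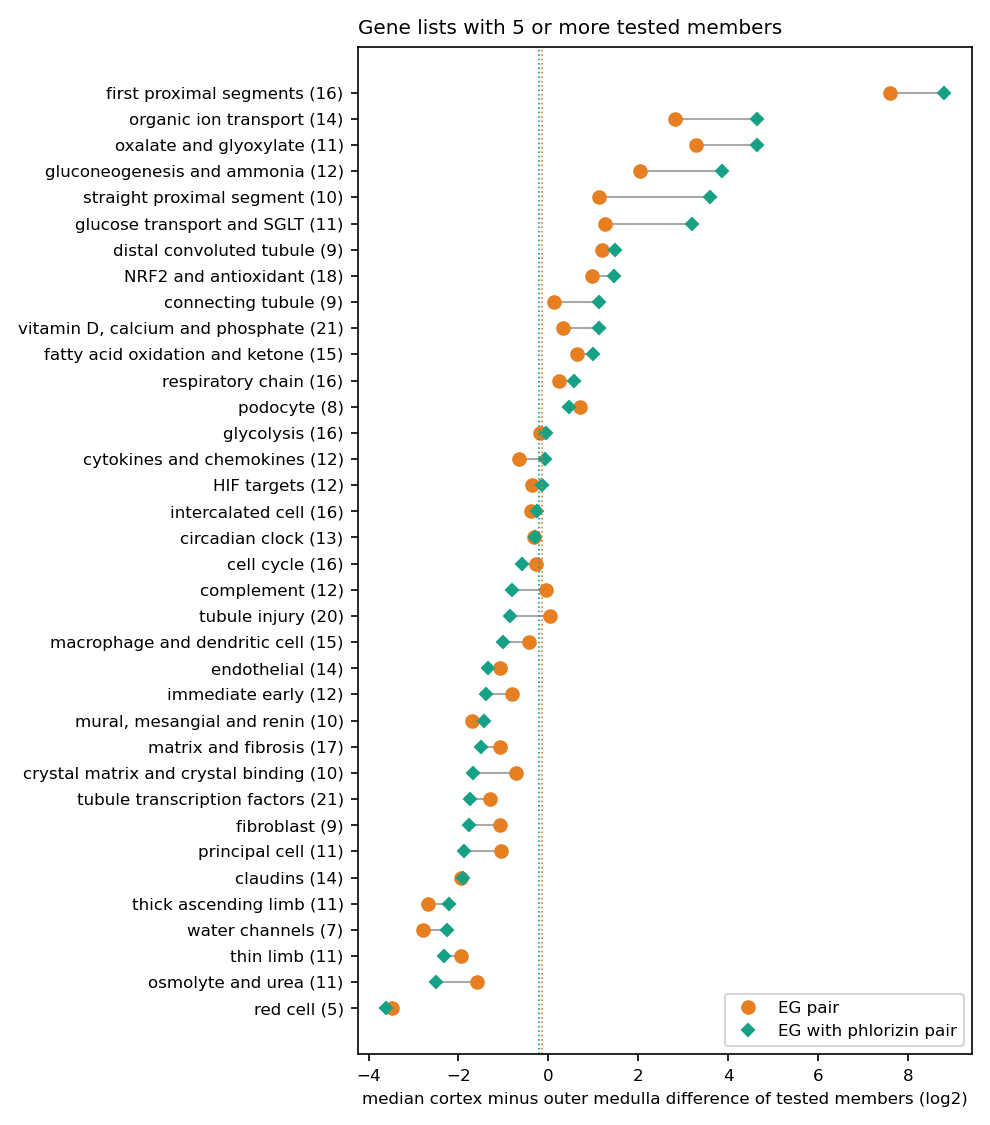
Median cortex minus outer medulla difference (log2, horizontal axis) of the tested members of each gene list with 5 or more tested members (vertical axis, number tested in brackets), for the EG pair (circles) and the EG with phlorizin pair (diamonds), with dotted lines at the medians over all tested probe sets. Markers of the first proximal segments lie farthest to the right, at 7.61 and 8.80, and for the thick ascending limb the EG pair, at -2.68, lies farther from 0 than the other pair, at -2.21.

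The zones resembled each other more in the EG pair than in the other pairs. Across tested probe sets the cortex array correlated with the outer medulla array at r = 0.88 in the EG pair and at 0.788 with EG and phlorizin, 0.79 in the control and 0.778 with phlorizin alone. These correlations run across probe sets of single arrays, which are not independent replicates. Differences of at least 3 toward the cortex were found in 267 probe sets in the EG pair and in 509 to 570 in each other pair, and toward the outer medulla in 154 against 229 to 333. A set of 764 probe sets was chosen on the arrays without EG, as at least 3 apart in the same direction in both the control and the phlorizin pair. Their median zone difference was 4.44 without EG, 2.81 in the EG pair and 4.14 in the EG with phlorizin pair, and 713 of 764 had the smaller difference in the EG pair than in the EG with phlorizin pair. The direction was kept at a size of at least 1 by 706 in the EG pair and 761 in the other. For the 517 cortical ones, the cortex EG array minus the cortex control array had a median of -1.63, and the same difference in the outer medulla had a median of 0.15. For the 247 of the outer medulla these medians were 0.41 in the cortex, with -1.16 in the outer medulla. The spike values of the cortex EG array moved with this result, and their part in it was not tested. Slc12a1, at -4.89 against -4.77, had a difference of like size in both pairs with EG.

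**Figure D4:**
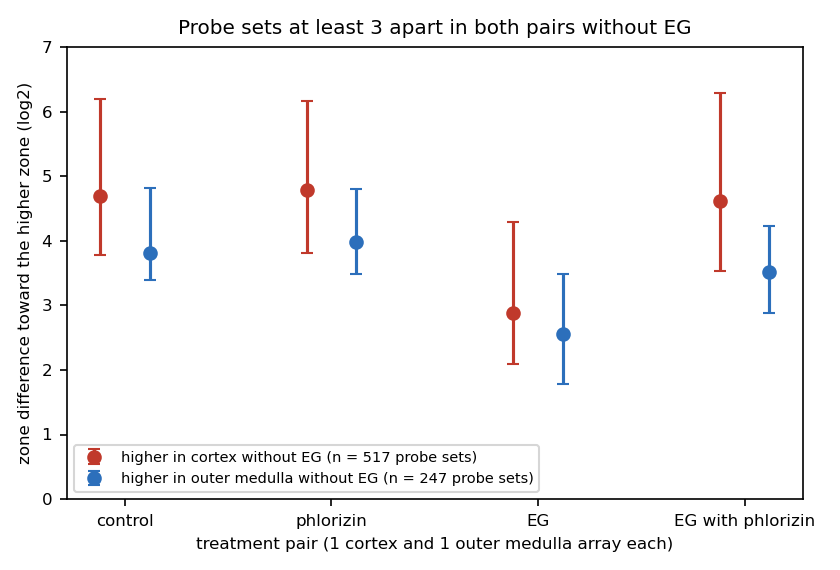
Zone difference toward the higher zone (log2, vertical axis) in the 4 treatment pairs (horizontal axis) for probe sets at least 3 apart in both pairs without EG, with medians as points and quartiles as bars. The EG pair has the lowest medians, 2.89 for the 517 probe sets higher in the cortex and 2.56 for the 247 higher in the outer medulla, and the control and phlorizin pairs chose these probe sets.

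Few zone differences were present under EG without phlorizin alone. The rule took probe sets at least 1 apart in the EG pair, under 0.5 in the same direction in the EG with phlorizin pair, and at least 1 apart between the pairs. It found 29 toward the cortex (0.22%) and 50 toward the outer medulla (0.38%). The limma call says nothing about them, since the rule asks for the inequality between pairs that is the error of that fit. The mirror rule, for the EG with phlorizin pair alone, found 234 toward the cortex (1.78%) and 290 toward the outer medulla (2.2%). Of those, 106 of 234 and 127 of 290 were also at least 1 in the same direction in both pairs without EG, against 0 of 29 and 3 of 50 for the EG pair alone. Of all 13163, 1708 in the control pair and 1815 in the phlorizin pair were at least 1 toward the cortex. Toward the outer medulla 2249 and 2616 were, each pair counted by itself. The counts depended on the size limits: at 2 and under 1, with a change of 2, the EG pair alone had 3 toward the cortex and 14 toward the outer medulla, and the EG with phlorizin pair alone 53 and 14. With no replicate these counts describe single arrays.

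The cortex side of the EG pair alone held 20 probe sets with a symbol. Car3, carbonic anhydrase III, was at 11.19 (cortex) and 8.60 (outer medulla) with EG, and at 7.38 and 7.25 with EG and phlorizin. Without EG, Car3 lay between 5.72 and 6.71 in both zones. Aplnr, the apelin receptor of endothelium, was at 9.01 and 7.07 in the EG pair and at 6.89 and 7.31 with phlorizin. For both genes the cortex EG array had the highest of the 8 values. Adamts1, a secreted protease, was at 14.40 and 13.02 against 12.01 and 12.78, and Postn, the matrix protein periostin, at 8.34 and 6.90 against 5.50 and 5.57, near background. PCOLCE2, an enhancer of procollagen processing, was at 12.46 and 11.02 against 9.37 and 10.18. In 24 of the 29 probe sets the cortex array differed more between the pairs than the outer medulla array did.

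On the outer medulla side some genes had their highest value on the outer medulla EG array. Krt15, a keratin of stratified epithelia, was at 10.38 on that array and between 5.64 and 6.38, near background, on the others. Tnfrsf11b, which encodes osteoprotegerin, was at 9.95 there against 6.68 in the cortex, and at 8.21 and 7.74 with phlorizin. Guca2b, uroguanylin, a peptide that promotes salt excretion, was at 12.59 there and between 8.11 and 10.84 on the others. Other genes of this set, such as Slc7a13, had a low value on the cortex EG array. Upk1b, a urothelial membrane protein outside the set, was called higher in the outer medulla. It was at 7.76 on the outer medulla EG array and at 5.53 in the outer medulla with EG and phlorizin. The latter lies under the background mean of that array, 5.66, and the mean difference was -1.17 with values raised to background. Of the 2 tested urothelium and inner medulla genes both were called in the main fit, and 1 with values raised to background. The part of urothelium in these differences was not tested.

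**Figure D5:**
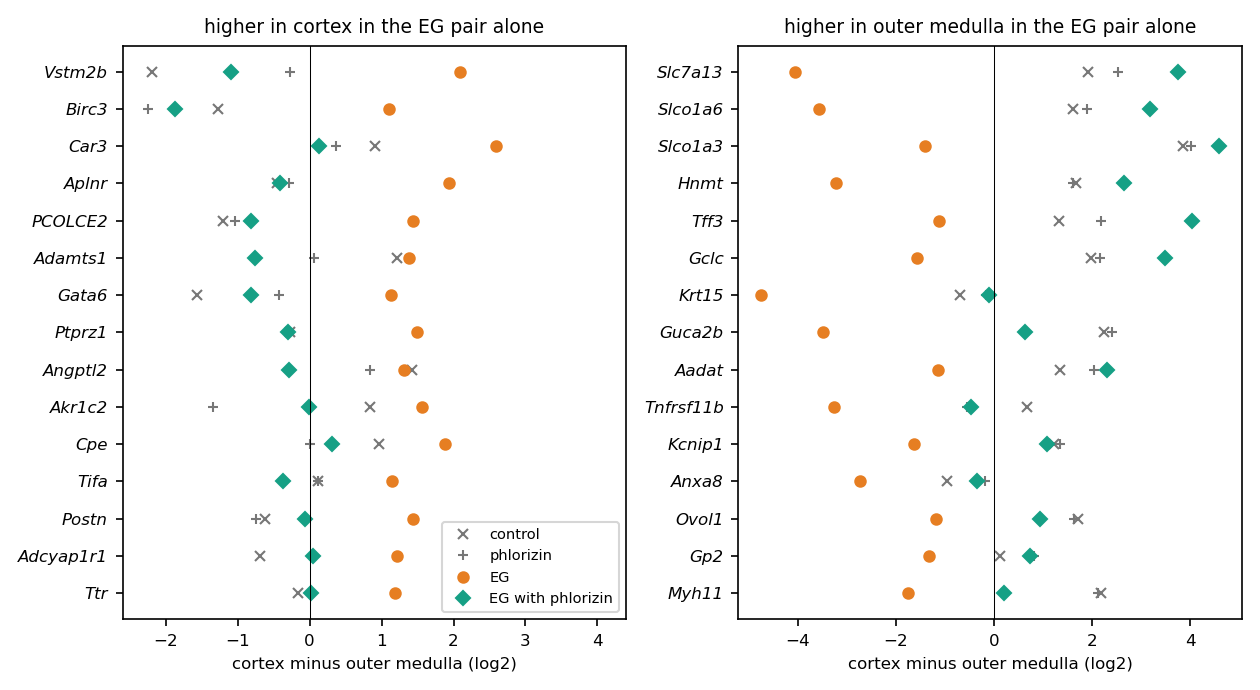
Cortex minus outer medulla difference (log2, horizontal axis) in each of the 4 pairs for the 15 named genes at least 1 apart in the EG pair alone toward the cortex (left) and toward the outer medulla (right), which the EG pair and the EG with phlorizin pair chose. Krt15 has -4.74 in the EG pair and lies between -0.69 and -0.11 in the others, while Slc7a13 has -4.05 against 1.93 to 3.76.

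Opposite directions of at least 1 in the pairs were rare. They were found in 10 probe sets higher in the outer medulla in the EG pair and in the cortex with phlorizin (0.076%), and in 2 with the reverse order (0.0152%). These are also counted in the sets of 1 pair alone. The 8 named genes of the first kind were Slc7a13, Slco1a6, Slco1a3, Hnmt, Gclc, Aadat, Tff3 and Kcnip1. In 9 of the 10 probe sets the cortex array differed more between the pairs than the outer medulla array. Hnmt, which inactivates histamine, was at 14.25, 14.68, 9.29 and 14.03 in the cortex for control, phlorizin, EG and EG with phlorizin, and at 12.58, 13.07, 12.51 and 11.37 in the outer medulla. Gclc, the catalytic subunit that limits glutathione synthesis, was at 15.86, 16.28, 11.65 and 15.52 in the cortex and at 13.88, 14.11, 13.22 and 12.04 in the outer medulla. For both genes the cortex EG array was the lowest cortex array by a wide margin. Aadat, an aminotransferase of tryptophan and lysine breakdown, was at 14.65 and 15.79 in the EG pair, cortex first, and at 16.80 and 14.49 with phlorizin. The 2 genes with the reverse order were Vstm2b, at 9.48 and 7.40 in the EG pair and at 6.93 and 8.01 with phlorizin, and Birc3, an inhibitor of cell death, at 8.64 and 7.53 against 6.78 and 8.65.

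Other genes differed by zone in the EG with phlorizin pair alone. Cyp2d5 and Cyp2d1, related cytochrome P450 genes whose probes could share transcripts, were at 7.94 and 8.47 on the cortex EG array and at 10.99 and 11.47 on the cortex array with EG and phlorizin. In the outer medulla Cyp2d5 and Cyp2d1 were at 8.42 and 9.03 with EG and at 7.22 and 7.78 with EG and phlorizin. Their values were level between zones in the EG pair only. Lpl, lipoprotein lipase, went the other way, at 12.48 and 12.70 in the EG pair and at 9.81 and 14.43 with phlorizin, cortex first. The mean difference of Lpl without EG was -4.89, and its interaction of zone with EG did not pass. Gem, a small GTPase, was at 10.61 and 10.84 against 7.83 and 11.35, and Niban1, a stress-response gene, at 12.53 and 12.04 against 9.27 and 11.24.

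The zone difference with EG was tested against that without EG over all 8 arrays. Without EG, 5602 probe sets (42.6%) were called between zones in this limma fit, which called 4148 with EG. Of the 5602, 2713 were among the 2941 called with EG in the fit on 4 arrays, 2709 in the same direction. That is 92.2% of the 2941 and 48.4% of the 5602. The fits differ in their error and residual degrees of freedom, so these shares do not measure zone differences lost with EG. Only 3 probe sets (0.0228%) passed for the interaction, all with a shift toward the outer medulla, while 1379 had an unadjusted p under 0.05. The error of this fit is the change of the zone difference with phlorizin, with and without EG, so inequality between the EG pairs enters it. In simulated data the interaction fit recovered 0%, 38%, 94% and 100% of 1, 2, 4 and 6 log2 unit differences. No difference between the EG pairs was added there, so these shares do not carry over to the data. With inequality between the EG pairs in the error, few calls do not show that zone differences were alike with and without EG. Gabrp, a GABA receptor subunit, was at 10.96 and 10.46 in the cortex without EG and at 5.86 and 5.50, near background, in the outer medulla. With EG, Gabrp was at 12.73 and 11.74 in the cortex and at 13.66 and 12.33 in the outer medulla, with an interaction of -5.78 (SE 0.29, limma adjusted p = 0.0071). A2m, the protease inhibitor alpha-2-macroglobulin, was between 5.55 and 5.9985 on the 4 arrays without EG, near background. With EG, A2m was at 14.22 and 11.74 in the outer medulla against 9.28 and 6.91 in the cortex, with an interaction of -4.66 (SE 0.30, limma adjusted p = 0.0115). The third probe set is unnamed in the annotation used here. It ran from 4.89 to 5.76 without EG and stood at 14.63 and 11.91 in the outer medulla with EG, against 8.97 and 6.09 in the cortex. None of the 3 passed without the control pair or without the phlorizin pair. A fit with a pair left out keeps 1 pair on 1 side of the comparison, with no spread between pairs there. Interaction calls of such fits are therefore not counted here.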

How the data were processed

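Per the submitters' processing notes the authors made the deposited values with RMA, and the values were used as log2, a base inferred from their range of 2.28 to 19.7; no source used here gives the software version. Of 24834 probe sets, 23188 were for transcripts, 15049 of them with a symbol, and for 10 symbols with several probe sets the one with the highest mean stood for the gene. A probe set entered the tests if its maximum over the 8 arrays was at least 7.54, the overall median. The number of arrays limits the precision. Cortex and outer medulla were compared in limma 3.58.1 (R 4.3.3) with treatment as a block, 2-sided, with Benjamini-Hochberg adjustment over the 13163. The interaction used all 8 arrays with 2 residual degrees of freedom. Members and lists were chosen with earlier results of these data known. In each direction, the genes named were the 15 called with the largest smaller-of-pair difference, the 15 with the largest change for the EG pair alone, 8 by the mirror rule, up to 10 opposite, called interactions, up to 4 of each list by size and 3 by change between pairs, and 13 fixed genes; uncharacterised loci were passed over. Genes in the text outside this rule were chosen after their values were seen. In data simulated with the fitted prior, the share of changed probe sets was far smaller than the 22.3% called here. There the fit on the 4 arrays recovered 2%, 78% and 100% of 1, 2 and 4 log2 unit differences, with 6 false calls among 13163. These recovered shares thus do not carry over to the data. Motifs searched on both strands were the HNF1 half-site GTTAAT and full site, the HNF4 forms CAAAGTCCA and the like form CAAAGTTCA, the STAT sites TTCCNGGAA (strict) and the looser TTCNNNGAA, the NFAT5 site with its core TGGAAA, the ESRR site TCAAGGTCA, the TATA box TATAAA, the AP-1 site TGANTCA, the antioxidant core TGANNNNGC, the AP-2 site GCCNNNGGC, the TEAD site GGAATG, the GRHL site AACCGGTT, and the serum response, DR1, DR3, glucocorticoid and TFCP2L1 sites, some of which overlap; the promoters came from RefSeq. Scripts ran in Python 3.11.15, pandas 2.3.3, numpy 2.4.6 and matplotlib 3.10.9. Alternatives covered normalization, filters, low values, the variance prior, the block, each pair left out and the size limits.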

Additional observations from a re-analysis of the deposited data

Results flagged for a closer look

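For 3 probe sets limma found a zone difference with EG that differed from that without EG: Gabrp by -5.78, A2m by -4.66 and a probe set with no gene name by -5.17 on the log2 scale.

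For 10 genes the single arrays of the EG pair and of the EG with phlorizin pair differed between zones in opposite directions, which was not tested. The zone difference in the EG pair minus that with phlorizin was -7.81 for Slc7a13, -6.74 for Slco1a6, -5.997 for Slco1a3 and -5.88 for Hnmt. It was -5.16 for Tff3, -5.05 for Gclc, -3.44 for Aadat and -2.70 for Kcnip1. For Vstm2b it was 3.17 and for Birc3 2.98.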

How the results depend on the processing

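Of 160 named genes called between zones with EG, none changed direction under any of the 10 alternative fits, and 109 stayed called in all of those that tested them. Calls were lost without the treatment block by 44 genes, with array medians centred by 19 and with the trend and robust prior by 18. Without the block the counts were 737 toward the cortex and 808 toward the outer medulla; with a pair left out they ranged from 1279 to 2125 and from 1772 to 3559, highest without the EG pair. Differences held in both pairs numbered 1683 and 2828 at a size of 0.5 and 479 and 343 at a size of 2. For the EG pair alone, cortex side, the count was 115 with no filter and 15 with the stricter filter on the mean. At sizes of 2 and 1 with a change of 2, the EG pair alone had 3 and 14 and the EG with phlorizin pair alone 53 and 14, and with under 1 in the other pair and no minimum change they had 132 and 215, and 720 and 1381. Opposite differences from cortex to outer medulla numbered 1 with quantile normalization, with medians centred and with the stricter filter, and 4 with no filter. Interaction calls toward the cortex numbered 3 with the trend and robust prior. With a treatment pair left out they ranged from 0 to 648 toward the cortex and from 0 to 859 toward the outer medulla, 0 without the control or the phlorizin pair. The median over the 764 probe sets, or those chosen in the same way, ranged from 2.80 to 2.90 in the EG pair and from 4.14 to 4.29 in the EG with phlorizin pair over the alternatives run. The causes were not tested. No paired analysis by replicate number was possible because each zone and treatment had 1 array; the pairing by treatment is in the fit. Signal over background limits dim genes.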
